A study of Mus musculus with 8 samples.

Results

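Wild-type long-term haematopoietic stem cells (LT-HSCs) that carry the Vwf-GFP signal were compared with wild-type LT-HSCs that lack it. The members are the 4 libraries labelled wild type (WT), 2 of Vwf+ and 2 of Vwf- cells, out of 8 libraries in all, and the difference is described over every gene tested. All cells were sorted from mouse bone marrow as lineage-negative, CD117-positive and Sca1-positive cells with high CD150 and low CD48, at an age of 10 to 12 months, and were then divided by GFP driven from Vwf. Each library is 1 pool of 3 to 4 mice, so single mice are not resolved, and replicate 1 is male and replicate 2 female in each group. The WT mice carry the Vwf-GFP reporter and no other allele is named for them. The other 4 libraries are the same fractions from heterozygous Dnmt3a+/- mice of the same age and sexes; they enter the fit to estimate the spread and 1 comparison at the end. Whether the Vwf+ and Vwf- pools of a sex came from the same mice is not given in the sources used here, and p-values measure the spread between these pools.

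Haematopoietic stem cells sustain all blood lineages, but single stem cells differ in the lineages they favour. Vwf encodes von Willebrand factor, the large adhesive glycoprotein of platelets and endothelium, and a Vwf reporter is known to mark stem cells that tend to give platelets. Such platelet-biased cells lie near the top of the stem cell hierarchy, and they become more frequent with age. Stem cells without the marker are known to yield lymphoid and balanced output more often. The comparison asks which genes, beyond the one used for the sort, separate these fractions.

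The 4 WT libraries held 22154192 and 23956877 counts (Vwf+, male and female) and 27891160 and 33846863 counts (Vwf-, male and female). Throughout, values are given in that order, male before female, as CPM (counts per 1000000 after scaling between libraries), with n = 2 a group. Replicates of a group differed by more than sampling noise, with a chi-square per degree of freedom of 31.7 for Vwf+ and 41.7 for Vwf-. The 10 markers of HSCs were all tested, at mean TPM of 14.8 to 373, a scale that allows for gene length. Of these, 7 were called higher in Vwf+ cells and none lower, with a median log2 difference of 0.94 (5 higher without the replicate block). Markers of other cells were mostly near the floor. The haemoglobin genes Hba-a1, Hba-a2, Hbb-bs and Hbb-bt had no count in any WT library, and Cd3d, Cd3e, Cd3g, Ms4a1 and Pax5 had at most 6 in any. How reads of near-identical copies such as the haemoglobin genes were counted is not given, so their lack of counts may not measure erythroid RNA. Summed over the tested markers of a type, B cells reached 12.6 to 20.5 CPM, T and NK cells 8.10 to 11.5, erythroblasts 14.00 to 28.00, neutrophils 19.2 to 98.8 and stromal cells 32.9 to 48.6. Larger sums were found for monocytes and macrophages (170.3 to 256), mast cells and their relatives (466 to 577), megakaryocytes (216 to 317) and endothelial cells (583 to 890.3). The mast cell, megakaryocyte and endothelial lists hold genes HSCs are known to transcribe, such as Gata2, Itga2b and Tie1. The part of other cells in these sums was not tested.

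Of 15917 tested genes, 1329 (8.35%) differed between Vwf+ and Vwf- cells at an adjusted p under 0.05 in edgeR's quasi-likelihood test with the replicate number, and thus sex, as a block. Higher in Vwf+ cells were 728 genes (4.57%) and lower 601 (3.78%). The higher genes also moved further: 413 exceeded a log2 difference of 1 and 158 one of 2, against 213 and 30 of the lower genes, and the medians were 1.15 and -0.84. An unadjusted p under 0.05 was found for 3022 genes, where 795.9 would be met by chance alone. The male and the female pair had the sign of the call for 727 of the 728 higher genes and for all 601 lower genes. Over all tested genes the pairs shared a sign for 64.2%. Calls were made on both pairs together, so the agreement of called genes is largely fixed by the calling. Between the pairs, the differences of all tested genes correlated with r = 0.361, and with r = 0.695 over the 10264 genes with a mean log2 CPM above 3, as a description over genes, which are not independent replicates. Libraries of the 2 groups did not overlap for 718 of the higher and 586 of the lower genes, a separation that 23.3% of all tested genes showed in each direction. The number of calls depended on the pairing: 314 genes (1.97%, 235 higher and 79 lower), each of them among the 1329, were called without the replicate block. Leaving out the female Vwf- library gave 780 calls, leaving out the female Vwf+ library 853, the male Vwf- library 937 and the male Vwf+ library 2375; 524 genes were called in all 4 of these fits and in the full one.

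**Figure D1:**
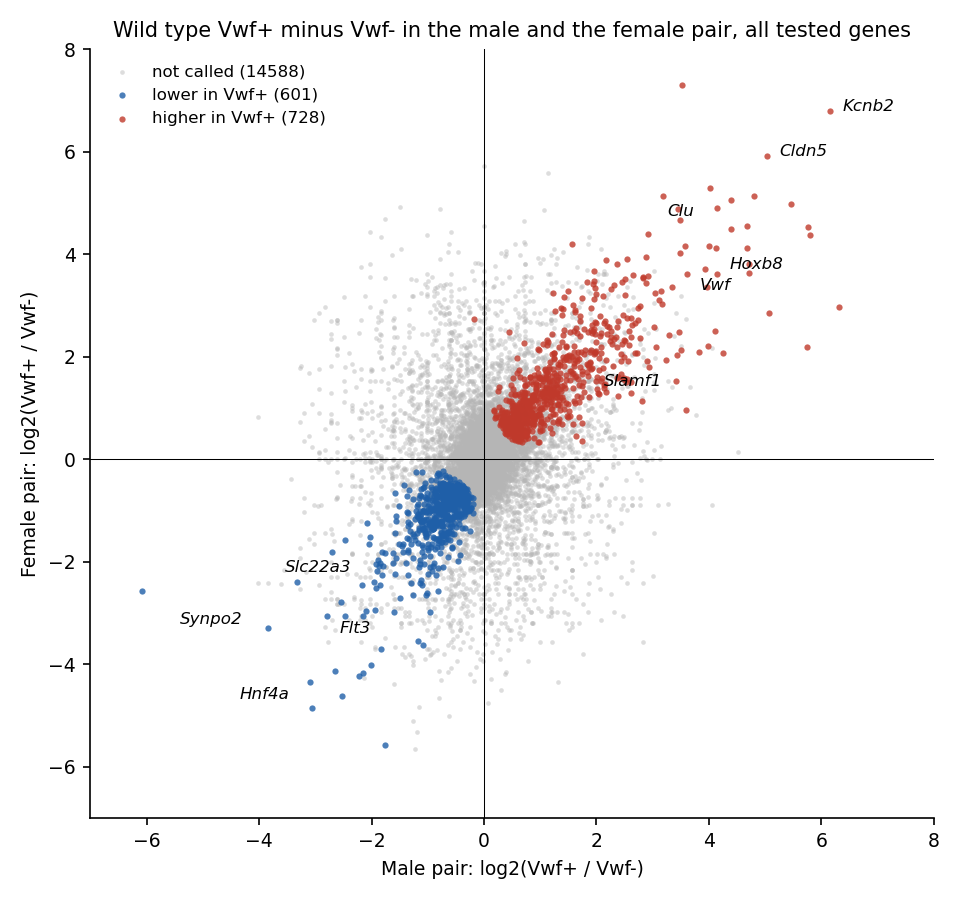
Each point is 1 of 15917 tested genes, with the log2 ratio of Vwf+ to Vwf- cells in the male pair on the x axis and in the female pair on the y axis. The 728 higher genes (red) lie in the upper right and the 601 lower genes (blue) in the lower left, and the higher genes reach further from 0.

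Vwf itself (chromosome 6, 125546774 to 125686679 on GRCm38, protein-coding) checks the sort. It stood at 1216 and 1409 CPM in Vwf+ and 98.9 and 115 CPM in Vwf- cells, a 12.3-fold difference (log2 3.62 ± 0.16, SE, edgeR adjusted p = 1.8e-11). The libraries of each group lay close together, and the Vwf- libraries were far from 0. Because the cells were separated by a reporter of this gene, its difference is not a finding.

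Clu had the smallest p of all genes. It encodes clusterin, a secreted chaperone, and lies on chromosome 14, 65968483 to 65981547. Clu stood at 132 and 172 CPM in Vwf+ and 7.36 and 5.70 CPM in Vwf- cells (log2 difference 4.53 ± 0.19, SE, edgeR adjusted p = 7.1e-12). Cldn5 encodes a claudin of endothelial tight junctions (chromosome 16, 18776847 to 18778262) and was at 31.1 and 33.2 CPM in Vwf+ and 0.885 and 0.480 CPM in Vwf- cells (log2 difference 5.59 ± 0.28, SE, edgeR adjusted p = 8.2e-11). For each gene, both Vwf+ libraries were far above both Vwf- libraries. Ehd3, which encodes an ATPase of endosomal recycling, measured 133 and 158 CPM in Vwf+ and 26.1 and 30.3 CPM in Vwf- cells (log2 difference 2.37 ± 0.14, SE, edgeR adjusted p = 1.9e-09). Matn4, a matrilin of the extracellular matrix, measured 57.7 and 84.2 CPM in Vwf+ and 5.20 and 2.79 CPM in Vwf- cells (log2 difference 4.22 ± 0.26, SE, edgeR adjusted p = 1.9e-09). The surface lectin gene Klrb1c, whose product is the NK1.1 antigen in some strains, measured 41.2 and 80.1 CPM in Vwf+ and 3.61 and 3.09 CPM in Vwf- cells (log2 difference 4.14 ± 0.26, SE, edgeR adjusted p = 1.9e-09). Groups were far apart in each case, while the female Vwf+ library was the highest of the 4 for Matn4 and Klrb1c. Neo1 encodes neogenin, a receptor of netrins and repulsive guidance molecules, and stood at 116 and 106 CPM in Vwf+ and 13.3 and 12.2 CPM in Vwf- cells (log2 difference 3.12 ± 0.21, SE, edgeR adjusted p = 6.2e-09). Ramp2, a co-receptor that lets the calcitonin receptor-like receptor bind adrenomedullin, stood at 18.3 and 36.7 CPM in Vwf+ and 1.06 and 0.871 CPM in Vwf- cells (log2 difference 4.76 ± 0.33, SE, edgeR adjusted p = 1.1e-08). Further genes with small p were Amotl2 (log2 2.48), Hoxb8 (3.91), Col18a1 (2.62), Tns2 (1.91), Jam2 (2.26), Slamf1 (1.83) and Dnm3 (2.91). Among genes with a mean of at least 5 CPM in Vwf+ cells, the largest differences included the potassium channel gene Kcnb2 (108 and 332 counts in Vwf+ cells, 0 and 2 in Vwf- cells), the lectin Zg16 (log2 6.48), Hoxb9 (5.41), the activin subunit Inhba (5.38) and the zinc finger factor Insm1 (5.26). Without the replicate block, Col18a1 and Zg16 were no longer called (edgeR adjusted p = 0.055 to 0.060).

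Among the lower genes, Arhgap30, which encodes a GTPase-activating protein, had the smallest p, at 37.02 and 37.5 CPM in Vwf+ and 139.5 and 156 CPM in Vwf- cells (log2 difference -1.98 ± 0.14, SE, edgeR adjusted p = 9.1e-09). Slc22a3, an organic cation transporter, stood at 25.6 and 24.9 CPM in Vwf+ and 92.03 and 137 CPM in Vwf- cells (log2 difference -2.15 ± 0.16, SE, edgeR adjusted p = 2.0e-08). Flt3 (chromosome 5, 147330741 to 147400489) encodes the receptor tyrosine kinase that marks multipotent and lymphoid-primed progenitors. It stood at 6.34 and 4.35 CPM in Vwf+ and 44.3 and 36.8 CPM in Vwf- cells (log2 difference -2.92 ± 0.23, SE, edgeR adjusted p = 6.6e-08). Hnf4a, a nuclear receptor best known from liver and gut (chromosome 2, 163506808 to 163572910), was at 2.11 and 1.42 CPM in Vwf+ and 18.5 and 30.4 CPM in Vwf- cells (log2 difference -3.72 ± 0.31, SE, edgeR adjusted p = 1.3e-07). The groups did not overlap for any of the 4 genes, and for Hnf4a and Flt3 the Vwf- libraries were far above the Vwf+ libraries. Runx3, a RUNX transcription factor, measured 20.6 and 26.4 CPM in Vwf+ and 71.8 and 111 CPM in Vwf- cells (log2 difference -1.94 ± 0.16, SE, edgeR adjusted p = 9.7e-08). Others with small p were Mdga1 (log2 -2.05), the auxilin gene Dnajc6 (-1.59), the transporter Spns3 (-2.80), Bsn (-1.82), Synpo2 (-3.62), Sh2d5 (-1.81), the dynein gene Dnah8 (-1.32), Cd34 (-1.35), Sox6 (-1.20) and the kinetochore gene Casc5 (-1.45). The largest decreases also included the chemokine Ccl3 (-3.18), the melanocortin receptor Mc5r (-3.10) and Tespa1 (-2.88). Unpaired, Casc5 and Ccl3 were no longer called (edgeR adjusted p = 0.12 to 0.21).

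**Figure D2:**
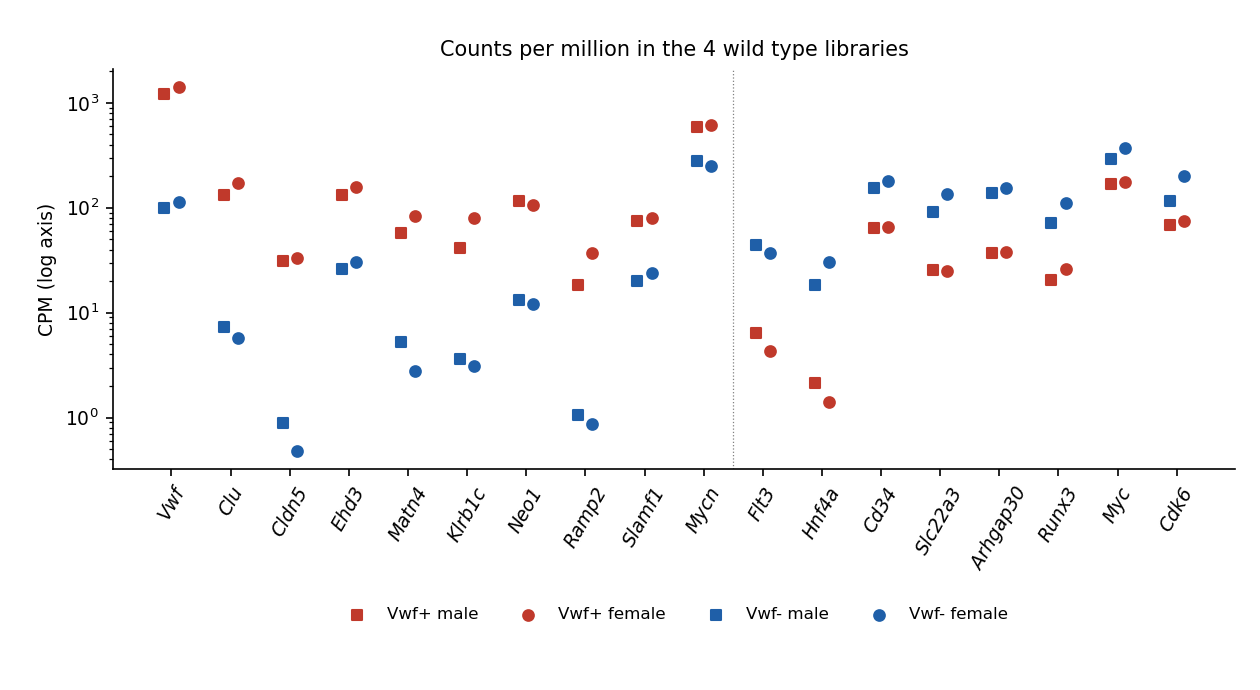
CPM on a log axis for 18 genes in the 4 WT libraries (red Vwf+, blue Vwf-, squares male, circles female). Left of the dotted line every Vwf+ library is above every Vwf- library, as for Vwf at 1216 and 1409 against 98.9 and 115 CPM; right of it the order is the opposite.

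Surface receptors were next considered by their use in sorting stem cells. Of 30 tested receptors and sort markers, 10 rose in Vwf+ cells and 5 fell, with a median log2 difference of 0.35, against -0.00098 over all tested genes. Slamf1, which encodes CD150 of the sort gate, rose within that gate, at 75.6 and 80.5 CPM in Vwf+ and 20.1 and 23.8 CPM in Vwf- cells (log2 difference 1.83 ± 0.14, SE, edgeR adjusted p = 4.9e-08). Procr, the endothelial protein C receptor EPCR, measured 152 and 114 CPM in Vwf+ and 109 and 51.6 CPM in Vwf- cells (log2 difference 0.83 ± 0.16, SE, edgeR adjusted p = 0.0017); the male Vwf- library, at 109 CPM, was close to the female Vwf+ library. Itgb3, the beta-3 integrin subunit of platelets, stood at 329.5 and 365 CPM in Vwf+ and 121 and 139.6 CPM in Vwf- cells (log2 difference 1.41 ± 0.15, SE, edgeR adjusted p = 3.2e-06). Also higher were Jam3 (log2 1.10) and the tetraspanins Cd9 (0.55), Cd63 (0.55) and Cd81 (0.49), beside Neo1, Jam2 and Klrb1c. Cd34, a sialomucin that adult mouse LT-HSCs carry little of, fell and stood at 64.3 and 66.1 CPM in Vwf+ and 153 and 182 CPM in Vwf- cells (log2 difference -1.35 ± 0.16, SE, edgeR adjusted p = 7.5e-06). Cd27, a receptor of the TNF receptor family, measured 74.4 and 66.5 CPM in Vwf+ and 132 and 127 CPM in Vwf- cells (log2 difference -0.88 ± 0.14, SE, edgeR adjusted p = 1.9e-04). With Flt3, Cd244 (-3.95) and the cytokine receptor chain Csf2rb (-0.88), these were the 5 that fell. The gate genes Kit and Ly6a did not pass the test: Kit stood at 871 and 815 CPM in Vwf+ and 1033 and 1006 CPM in Vwf- cells (edgeR adjusted p = 0.32) and Ly6a at 33.1 and 41.5 CPM in Vwf+ and 26.3 and 25.8 CPM in Vwf- cells (edgeR adjusted p = 0.12). Cd48, used at low level in the gate, was near the floor at 0.990 and 0.0861 CPM in Vwf+ and 1.52 and 2.55 CPM in Vwf- cells (edgeR adjusted p = 0.32). Of this list, 6 higher and 3 lower were called without the replicate block, and 7 to 10 higher and 4 to 6 lower with each WT library left out. The median was 0.20 on TPM. With no replicate block the edgeR adjusted p was 0.13 to 0.57 for Procr, Cd9, Cd63, Cd81, Cd244 and Csf2rb. Calls were also lost without the male Vwf- library (Cd9, Cd81 and Csf2rb), the female Vwf- library (Cd9, Cd63 and Cd81), the male Vwf+ library (Cd81) and the female Vwf+ library (Procr, Cd9, Cd63 and Csf2rb).

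Genes known from aged and platelet-biased stem cells moved together. Of 35 tested, 29 were higher in Vwf+ cells and 1 lower, with a median log2 difference of 1.54 (1.46 in the male and 1.56 in the female pair). The call of Vwf, which is in the list, was fixed by the sort, and the list was put together with knowledge of such cells and with earlier results of these data known, so its count is a description. Selp, the P-selectin of platelet granules, stood at 212 and 235 CPM in Vwf+ and 37.9 and 79.3 CPM in Vwf- cells (log2 difference 2.02 ± 0.19, SE, edgeR adjusted p = 4.9e-07). Gpr183, an oxysterol receptor, stood at 40.8 and 37.1 CPM in Vwf+ and 5.45 and 3.36 CPM in Vwf- cells (log2 difference 3.23 ± 0.35, SE, edgeR adjusted p = 3.2e-06). Cd38 encodes an NAD-consuming ectoenzyme and measured 31.2 and 20.7 CPM in Vwf+ and 6.58 and 4.14 CPM in Vwf- cells (log2 difference 2.28 ± 0.27, SE, edgeR adjusted p = 9.4e-06). Groups did not overlap for these 3 genes. Osmr, a receptor of oncostatin M, was at 22.2 and 14.6 CPM in Vwf+ and 0.778 and 1.11 CPM in Vwf- cells (log2 difference 4.20 ± 0.35, SE, edgeR adjusted p = 1.2e-07). Sdpr, a cavin of caveolae, was at 279 and 277 CPM in Vwf+ and 91.4 and 60.2 CPM in Vwf- cells (log2 difference 1.91 ± 0.17, SE, edgeR adjusted p = 3.0e-07). Others that rose were Tm4sf1 (log2 2.68), Sbspon (2.97), Nupr1 (1.74), the metallothionein Mt1 (1.73), Alcam (1.24) and Exoc6b (0.82). The interleukin-18 receptor gene Il18r1 fell (-1.11), while Aldh1a1 (log2 0.36), Plscr2 (log2 0.76), Fgf11 (log2 -0.31), Cdc14a (log2 0.23) and Fyb (log2 -0.04) did not pass the test (edgeR adjusted p = 0.058 to 0.91). Of this list, 24 higher and 0 lower were called without the replicate block, and 29 to 30 higher and 0 to 1 lower with each WT library left out. The fit with no pairing of the sexes lost Nupr1, Mt1 and Il18r1 (edgeR adjusted p = 0.052 to 0.30). Among the fits with a library left out, calls were lost without the male Vwf- library (Il18r1), the female Vwf- library (Il18r1) and the male Vwf+ library (Il18r1).

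The genes of mature megakaryocytes and platelets were mixed. Of 31 tested, 9 rose and 2 fell (35.5% called, against 8.35% of all tested genes), with a median of 0.36. Vwf, whose call was fixed by the sort, is 1 of the 9. The others were Selp and Itgb3, the chemokine Pf4 at 19.4 and 28.4 CPM in Vwf+ and 14.2 and 5.04 CPM in Vwf- cells (log2 difference 1.36 ± 0.38, SE, edgeR adjusted p = 0.027), Cd9, Clec1b (log2 2.40), coagulation factor F5 (0.90), multimerin Mmrn1 (0.57) and the transcription factor Fli1 (0.44). Fallen were Plek, which encodes the platelet protein pleckstrin, at 57.7 and 53.2 CPM in Vwf+ and 130.2 and 112 CPM in Vwf- cells (log2 difference -1.13 ± 0.19, SE, edgeR adjusted p = 3.8e-04), and Gp5 (log2 -0.98). The other subunits of the platelet von Willebrand factor receptor did not pass the test, with Gp1bb at 4.05 and 5.12 CPM in Vwf+ and 1.91 and 1.83 CPM in Vwf- cells (edgeR adjusted p = 0.073), Gp9 at 14.9 and 17.6 CPM in Vwf+ and 9.73 and 10.5 CPM in Vwf- cells (edgeR adjusted p = 0.071) and Gp1ba at a log2 difference of -0.15 (edgeR adjusted p = 0.79). Itga2b, the platelet integrin alpha-IIb, was also not called, at 179 and 220.0 CPM in Vwf+ and 139.9 and 198 CPM in Vwf- cells (edgeR adjusted p = 0.39), and Nfe2 (log2 -0.05), Gata1 (log2 -0.78), Ppbp (log2 0.22) and Tubb1 (log2 0.81) did not pass the test (edgeR adjusted p = 0.13 to 0.94). Of this list, 3 higher and 1 lower were called without the replicate block, and 3 to 8 higher and 1 to 4 lower with each WT library left out, namely 3 higher without the female Vwf- library, 4 lower without the male Vwf+ library and 1 lower without the female Vwf+ library. The median was 0.22 without the male Vwf+ library and 0.21 on TPM. Without the replicate block, Cd9, Pf4, Clec1b, F5, Mmrn1, Fli1 and Gp5 were no longer called (edgeR adjusted p = 0.16 to 0.46). With a library left out, calls ended without the male Vwf- library (Cd9, Mmrn1, Fli1 and Gp5), the female Vwf- library (Cd9, Pf4, Clec1b, F5, Mmrn1 and Fli1), the male Vwf+ library (F5 and Fli1) and the female Vwf+ library (Cd9, Pf4, Clec1b and Gp5).

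Lineage priming genes, which stem cells transcribe at low level ahead of commitment, differed by lineage. None of 27 tested lymphoid genes rose and 6 fell (median -0.35), among them Flt3, Cd34, Cd27, Ikzf1 (log2 -0.53) and the tetraspanin Cd37. Cd37 stood at 13.2 and 13.01 CPM in Vwf+ and 37.7 and 24.7 CPM in Vwf- cells (log2 difference -1.22 ± 0.19, SE, edgeR adjusted p = 1.8e-04). The recombination genes and their companions Rag1 (log2 -0.99), Rag2 (log2 -0.18), Dntt (log2 0.22) and Il7r (log2 -0.03) did not pass the test (edgeR adjusted p = 0.82 to 0.99). Of this list, 4 lower were called without the replicate block, and 5 to 8 lower with each WT library left out. The median was -0.54 without the female Vwf- library, -0.56 without the male Vwf+ library and -0.54 on TPM. Of 19 erythroid genes, the water channel Aqp1 rose (0.60), and Car1 (-1.52) and Ermap (-1.53) were among 3 that fell. Of 24 myeloid genes, 4 rose and 3 fell. Called in either direction were 22.2% of the lymphoid, 21.1% of the erythroid and 29.2% of the myeloid list. The share was 8.35% over all tested genes and 10.1% to 12.4% over those at 3 to 100 CPM. Those that rose were the granule protease genes Elane and Prtn3, Mpo and the repressor Gfi1, with Mpo at 78.1 and 35.7 CPM in Vwf+ and 19.8 and 8.44 CPM in Vwf- cells (log2 difference 2.02 ± 0.53, SE, edgeR adjusted p = 0.020) and Elane at 15.7 and 11.4 CPM in Vwf+ and 3.96 and 0.961 CPM in Vwf- cells (log2 difference 2.50 ± 0.51, SE, edgeR adjusted p = 0.0024). Prtn3 stood at 103 and 132 CPM in Vwf+ and 62.3 and 58.4 CPM in Vwf- cells (log2 difference 0.95 ± 0.14, SE, edgeR adjusted p = 1.6e-04). Mpo and Elane are also neutrophil markers; of 10 tested markers of neutrophils only these 2 were called, and the summed level of that list was 98.8 and 56.4 CPM in Vwf+ cells and 31.00 and 19.2 CPM in Vwf- cells. The part of such cells in these values was not tested, and in bulk samples fewer cells of a type and less RNA per cell cannot be told apart. Anxa1 (-0.60), Nkg7 (-1.96) and Csf2rb fell. MHC class II and antigen presentation genes, background for lymphoid and dendritic fates, had 5 of 21 (23.8%) lower and none higher (median -0.30). They were H2-Ab1, H2-Eb1 and H2-Ob, the class II transactivator Ciita and the peptide transporter Tap2, with H2-Ab1 at 72.9 and 84.6 CPM in Vwf+ and 119.7 and 137 CPM in Vwf- cells (log2 difference -0.71 ± 0.15, SE, edgeR adjusted p = 0.0034). The class I genes H2-K1 (log2 0.16), H2-D1 (log2 0.17) and B2m (log2 0.07) did not pass the test (edgeR adjusted p = 0.58 to 0.89). No member of the erythroid or MHC list was called without the replicate block, and 1 myeloid gene was higher and 1 lower. The erythroid list had 5 lower without the male Vwf-, 5 lower without the male Vwf+ and 1 lower without the female Vwf+ library. The myeloid list had 7 higher without the female Vwf+, 1 lower without the male Vwf- and 1 lower without the female Vwf+ library. The MHC list had 2 lower without the female Vwf- library. Unpaired, Csf2rb, Ikzf1, Aqp1, Car1, Ermap, Elane, Mpo, Gfi1, Anxa1, H2-Ab1, H2-Eb1, H2-Ob, Ciita and Tap2 were no longer called (edgeR adjusted p = 0.054 to 0.85). Calls were also lost without the male Vwf- library (Csf2rb, Ikzf1, Aqp1 and Anxa1), the female Vwf- library (Ikzf1, Aqp1, Ermap, Gfi1, H2-Ab1, H2-Ob, Ciita and Tap2), the male Vwf+ library (Aqp1 and H2-Eb1) and the female Vwf+ library (Csf2rb, Ikzf1, Car1, Ermap, Anxa1 and Tap2).

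Of 36 transcription factors known from HSCs, 13 were higher and 5 lower in Vwf+ cells, with a median of 0.17. Mycn and Myc, related factors that drive growth, moved in opposite directions. Mycn rose, at 588 and 608 CPM in Vwf+ and 278 and 249 CPM in Vwf- cells (log2 difference 1.18 ± 0.14, SE, edgeR adjusted p = 9.4e-06), and Myc fell, at 169.7 and 177 CPM in Vwf+ and 295 and 368 CPM in Vwf- cells (log2 difference -0.92 ± 0.14, SE, edgeR adjusted p = 2.2e-04). Groups did not overlap for either. Mllt3, a factor that maintains HSCs, stood at 330.2 and 291 CPM in Vwf+ and 181 and 123 CPM in Vwf- cells (log2 difference 1.05 ± 0.14, SE, edgeR adjusted p = 4.1e-05). Sox18 stood at 19.3 and 14.6 CPM in Vwf+ and 2.94 and 3.42 CPM in Vwf- cells (log2 difference 2.41 ± 0.28, SE, edgeR adjusted p = 7.2e-06). Klf2 (log2 1.63), Hoxb5 (1.24), Mecom (0.62), Prdm16 (0.50), Nr4a1 (1.18) and Nr4a2 (0.82) also rose. Ikzf2 (-0.93), Ikzf1 (-0.53) and Myb (-0.49) fell with Hnf4a. The core factors Runx1 (log2 0.06), Tal1 (log2 0.07), Lyl1 (log2 0.04), Gata2 (log2 0.21), Erg (log2 -0.01) and Meis1 (log2 -0.03) did not pass the test (edgeR adjusted p = 0.49 to 0.98), nor did Hlf, at 479.6 and 365 CPM in Vwf+ and 535 and 439 CPM in Vwf- cells (edgeR adjusted p = 0.47). Of this list, 6 higher and 2 lower were called without the replicate block, and 9 to 13 higher and 2 to 5 lower with each WT library left out, namely 3 lower without the male Vwf- library and 2 lower without the female Vwf- library. The median was 0.07 without the male Vwf+ library, 0.27 without the female Vwf+ library and -0.0065 on TPM. With no replicate block the edgeR adjusted p was 0.072 to 0.28 for Myc, Mecom, Prdm16, Nr4a2, Ikzf1 and Myb. Among the fits with a library left out, calls were lost without the male Vwf- library (Mecom, Prdm16, Ikzf1 and Myb), the female Vwf- library (Mecom, Prdm16, Ikzf2, Ikzf1 and Myb), the male Vwf+ library (Myb) and the female Vwf+ library (Ikzf1).

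The Hox genes set body position in the embryo and the HSC programme in blood, and they lie in ordered clusters. Of 17 tested Hoxa and Hoxb genes, 7 were higher in Vwf+ cells and none lower, with a median of 0.57. On chromosome 11 the difference was largest at the Hoxb9 end. Hoxb9 stood at 6.84 and 10.8 CPM in Vwf+ and 0.177 and 0.240 CPM in Vwf- cells (log2 difference 5.41 ± 0.71, SE, edgeR adjusted p = 3.2e-05). Next to it, Hoxb8 stood at 19.97 and 24.1 CPM in Vwf+ and 1.06 and 1.89 CPM in Vwf- cells (log2 difference 3.91 ± 0.27, SE, edgeR adjusted p = 9.1e-09). Hoxb7 had few counts and did not pass the test, at 2.38 and 2.97 CPM in Vwf+ and 1.38 and 0.630 CPM in Vwf- cells (edgeR adjusted p = 0.19). Hoxb6 stood at 24.5 and 30.6 CPM in Vwf+ and 7.78 and 5.16 CPM in Vwf- cells (log2 difference 2.19 ± 0.31, SE, edgeR adjusted p = 7.9e-05). The order then ran on through Hoxb5 at 19.5 and 19.5 CPM in Vwf+ and 8.42 and 8.08 CPM in Vwf- cells (log2 difference 1.24 ± 0.21, SE, edgeR adjusted p = 5.0e-04), Hoxb4 at 32.6 and 18.9 CPM in Vwf+ and 20.7 and 15.2 CPM in Vwf- cells (not called, edgeR adjusted p = 0.13), Hoxb3 (log2 0.78 ± 0.18) and Hoxb2 (1.02 ± 0.20). Hoxb9 and Hoxb8 lay under 2 CPM in Vwf- cells. In the Hoxa cluster on chromosome 6, Hoxa3 was called (0.57), and Hoxa9, known for its role in HSC growth, stood at 55.1 and 48.4 CPM in Vwf+ and 70.5 and 62.4 CPM in Vwf- cells (edgeR adjusted p = 0.13). Of this list, 4 higher were called without the replicate block, and 5 to 9 higher with each WT library left out. The fit with no pairing of the sexes lost Hoxb6, Hoxb3 and Hoxa3 (edgeR adjusted p = 0.070 to 0.31). With a library left out, calls ended without the male Vwf- library (Hoxb3 and Hoxa3), the female Vwf- library (Hoxb2 and Hoxa3) and the female Vwf+ library (Hoxb3 and Hoxa3).

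**Figure D3:**
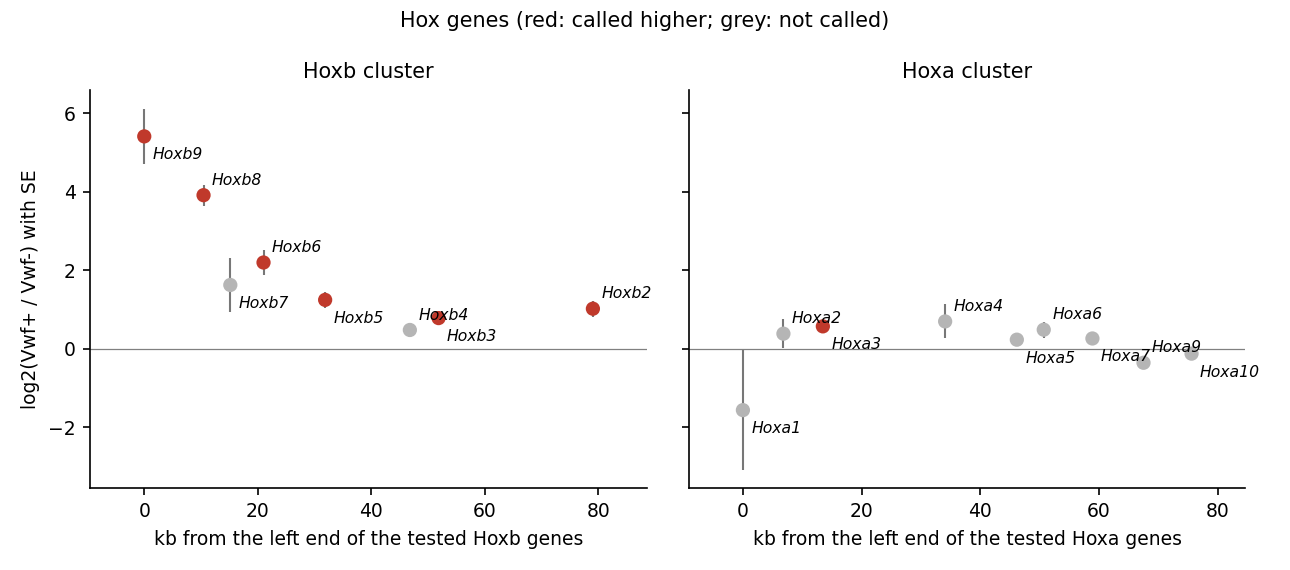
Fitted log2 difference (with SE) of the tested Hoxb genes (left) and Hoxa genes (right) by distance along each cluster in kb, red where called. In Hoxb the values run from 5.41 at Hoxb9 to 0.48 at Hoxb4 and 1.02 at Hoxb2, and in Hoxa only Hoxa3, at 0.57, is called.

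Most tested genes of the cell cycle were lower in Vwf+ cells. Most LT-HSCs are in quiescence, and the transcripts of DNA replication and mitosis appear as cells enter the cycle. Of 48 genes of S phase and DNA replication, 36 fell and none rose, with a median of -0.71 (-0.61 in the male and -0.76 in the female pair). Of 43 genes of G2/M and mitosis, 37 fell and none rose, with a median of -0.95 (-0.80 and -1.10). Mki67, the proliferation antigen Ki-67, stood at 253 and 368 CPM in Vwf+ and 472 and 1059 CPM in Vwf- cells (log2 difference -1.18 ± 0.20, SE, edgeR adjusted p = 4.8e-04). Top2a, the topoisomerase of dividing cells, stood at 167 and 226 CPM in Vwf+ and 311 and 547 CPM in Vwf- cells (log2 difference -1.06 ± 0.19, SE, edgeR adjusted p = 9.4e-04). The kinesin Kif11 of the spindle measured 46.3 and 75.7 CPM in Vwf+ and 100.5 and 170.1 CPM in Vwf- cells (log2 difference -1.14 ± 0.15, SE, edgeR adjusted p = 2.8e-05). In each sex the Vwf- library was well above its Vwf+ partner, but the female libraries were above the male ones, so that the female Vwf+ library came near the male Vwf- library. The separase gene Espl1 measured 16.9 and 28.9 CPM in Vwf+ and 35.7 and 73.2 CPM in Vwf- cells (log2 difference -1.21 ± 0.15, SE, edgeR adjusted p = 2.3e-05). Among replication genes, Dtl measured 28.2 and 32.9 CPM in Vwf+ and 52.9 and 77.6 CPM in Vwf- cells (log2 difference -1.07 ± 0.15, SE, edgeR adjusted p = 8.7e-05), and Mcm2 of the replicative helicase 114 and 164 CPM in Vwf+ and 165 and 272 CPM in Vwf- cells (log2 difference -0.63 ± 0.15, SE, edgeR adjusted p = 0.0077). Ect2 (-1.58), Kif23 (-1.21), Kif20b (-1.04), Mcm10 (-1.14), Cdc6 (-1.01), Uhrf1 (-1.06) and E2f1 (-1.06) fell too. Ccne1 (0.01, edgeR adjusted p = 0.99) and Pttg1 (0.14, edgeR adjusted p = 0.84) did not pass the test. Summed over the list, G2/M genes stood at 1422 and 1938 CPM in Vwf+ cells and 2464 and 4446 CPM in Vwf- cells. Replication-dependent histone genes, looked at after their values were seen, had 34 of 57 members lower and none higher. Many of them are near-identical copies, between which counting could split reads.

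**Figure D4:**
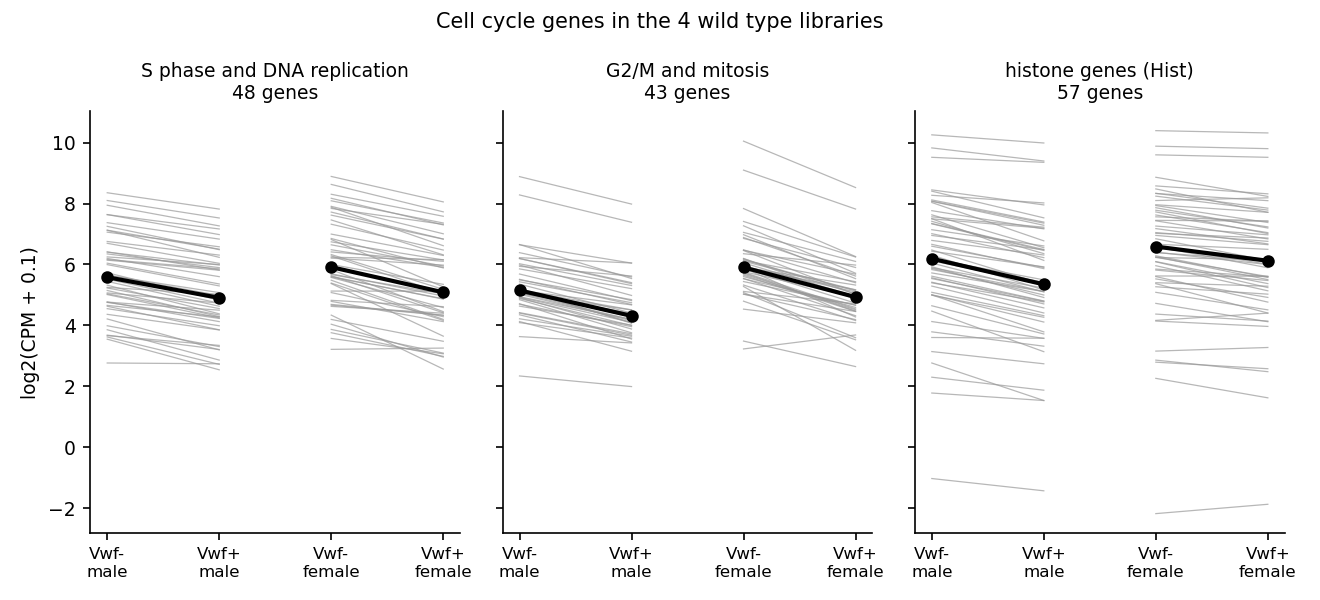
Each grey line is 1 gene, from the Vwf- to the Vwf+ library of the same sex, on a log2(CPM + 0.1) scale, and the black line is the median of the list. Medians fall from Vwf- to Vwf+ in both sexes for 48 S phase, 43 G2/M and 57 histone genes, and the female libraries lie above the male ones.

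These calls rest on the pairing by sex. In the edgeR fit without the replicate block, 1 of the S phase genes and none of the G2/M genes were called, and 28 and 20 had an unadjusted p under 0.05. DESeq2 with the block called 38 S phase and 35 G2/M genes. With each WT library left out, 28 to 38 G2/M genes were lower, and 16 to 37 S phase genes, with 17 without the male Vwf- and 16 without the female Vwf+ library. The Malat1 share of counts, a nuclear transcript, differed by sex as well, at 1.00% and 0.974% in the male and 0.585% and 0.558% in the female Vwf- and Vwf+ libraries.

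Upstream sequences are shown for cell cycle genes, as they moved together and their promoters share known motifs. Shown are the 3 genes of each list with the smallest p that hold both motifs named in the 250 bases before the gene start (RefSeq, GRCm38.p6, 5′ to 3′ on the gene's strand). Capitals in the G2/M genes mark CCAAT (NF-Y) and TTTGAA (the CHR, a cell cycle element) on either strand.
Espl1 (chr15:102296043-102296292, plus strand): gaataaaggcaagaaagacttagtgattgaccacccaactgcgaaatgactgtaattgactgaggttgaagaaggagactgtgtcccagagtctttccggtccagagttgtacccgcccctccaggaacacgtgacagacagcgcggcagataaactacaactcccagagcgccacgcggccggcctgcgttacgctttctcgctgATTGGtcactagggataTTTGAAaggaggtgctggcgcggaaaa
Kif11 (chr19:37376132-37376381, plus strand): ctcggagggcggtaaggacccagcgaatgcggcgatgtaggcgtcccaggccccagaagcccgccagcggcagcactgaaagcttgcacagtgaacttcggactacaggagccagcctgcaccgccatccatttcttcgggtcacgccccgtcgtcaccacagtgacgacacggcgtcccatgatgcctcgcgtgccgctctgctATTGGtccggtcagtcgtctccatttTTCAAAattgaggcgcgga
Ect2 (chr3:27153879-27154128, minus strand): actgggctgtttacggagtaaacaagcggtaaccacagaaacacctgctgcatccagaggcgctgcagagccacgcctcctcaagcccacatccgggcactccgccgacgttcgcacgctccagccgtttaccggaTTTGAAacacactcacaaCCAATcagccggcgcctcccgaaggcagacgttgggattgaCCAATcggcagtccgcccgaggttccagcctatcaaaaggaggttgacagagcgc

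Capitals in the S phase genes mark TTCCCGC (E2F) and CCAAT on either strand.
Dtl (chr1:191575545-191575794, minus strand): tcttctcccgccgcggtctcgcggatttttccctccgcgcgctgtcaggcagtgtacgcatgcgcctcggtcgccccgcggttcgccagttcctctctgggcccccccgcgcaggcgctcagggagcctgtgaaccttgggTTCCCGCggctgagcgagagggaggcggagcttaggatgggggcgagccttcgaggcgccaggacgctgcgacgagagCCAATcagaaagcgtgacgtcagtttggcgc
Uhrf1 (chr17:56303087-56303336, plus strand): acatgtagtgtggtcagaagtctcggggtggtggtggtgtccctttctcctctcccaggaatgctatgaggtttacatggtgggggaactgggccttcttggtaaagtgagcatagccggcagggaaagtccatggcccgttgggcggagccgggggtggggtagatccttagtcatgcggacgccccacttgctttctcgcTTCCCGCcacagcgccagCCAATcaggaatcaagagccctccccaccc
Prim1 (chr10:128014965-128015214, plus strand): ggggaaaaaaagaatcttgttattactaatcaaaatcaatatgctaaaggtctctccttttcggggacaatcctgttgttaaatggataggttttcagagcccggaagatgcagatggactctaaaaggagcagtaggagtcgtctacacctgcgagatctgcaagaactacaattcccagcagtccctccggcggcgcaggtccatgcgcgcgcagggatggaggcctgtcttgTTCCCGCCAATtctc
Of 36 G2/M genes with a promoter in the table, 75.0% held CCAAT, 33.3% TTTGAA and none TTCCCGC, against 35.7%, 11% and 6.51% of the 11795 promoters of tested genes. Of 39 S phase promoters, 28.2% held TTCCCGC and 59.0% CCAAT. Among all genes called lower, 18.1% of 430 promoters held TTTGAA. These are matches of letters in a window, not sites shown to be bound.

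Regulators of the cycle were mixed. Of 14 tested CDK inhibitors, D cyclins and their kinases, 2 rose and 3 fell (35.7% called, against 8.35% of all tested genes). Cdkn1c, the inhibitor p57 that holds HSCs in quiescence, rose, at 57.1 and 59.6 CPM in Vwf+ and 34.5 and 25.9 CPM in Vwf- cells (log2 difference 0.97 ± 0.16, SE, edgeR adjusted p = 3.3e-04). Cdk6, the kinase that drives exit from quiescence, fell, at 68.7 and 75.02 CPM in Vwf+ and 116 and 202 CPM in Vwf- cells (log2 difference -1.10 ± 0.16, SE, edgeR adjusted p = 8.1e-05). Ccnd1 rose (0.54), Cdkn2c (-0.98) and Rbl1 (-0.59) fell, and Cdkn1a stood at 4.45 and 3.36 CPM in Vwf+ and 2.65 and 1.74 CPM in Vwf- cells (edgeR adjusted p = 0.32). The CDK list had 1 higher without the female Vwf- and 1 higher without the male Vwf+ library. Without the replicate block, Cdk6, Ccnd1, Cdkn2c and Rbl1 were no longer called (edgeR adjusted p = 0.070 to 0.33). Calls were also lost without the female Vwf- library (Ccnd1 and Rbl1), the male Vwf+ library (Ccnd1) and the female Vwf+ library (Rbl1).

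Immediate-early genes are switched on within minutes by growth factors, stress or cell handling. Of 36 tested, 15 rose and 4 fell (52.8% called, against 8.35% of all tested genes), with a median of 0.67. Junb, an AP-1 subunit, rose, at 238 and 262 CPM in Vwf+ and 96.3 and 89.3 CPM in Vwf- cells (log2 difference 1.43 ± 0.14, SE, edgeR adjusted p = 1.4e-06). Fos stood at 386 and 261 CPM in Vwf+ and 237 and 131 CPM in Vwf- cells (log2 difference 0.86 ± 0.20, SE, edgeR adjusted p = 0.0080), and Egr1, a zinc finger factor linked to HSC quiescence, at 1025 and 629 CPM in Vwf+ and 580.5 and 309 CPM in Vwf- cells (log2 difference 0.93 ± 0.20, SE, edgeR adjusted p = 0.0042). For Fos and Egr1 the male libraries were above the female ones in both fractions. Fosl2 (1.19), Btg2 (1.45), Egr3 (2.05) and Ier2 (0.65) rose as well, while Jun (0.28, edgeR adjusted p = 0.36) and Dusp1 (-0.09, edgeR adjusted p = 0.84) did not pass the test. The ERK phosphatase Dusp6 fell, at 27.1 and 25.8 CPM in Vwf+ and 56.6 and 58.6 CPM in Vwf- cells (log2 difference -1.12 ± 0.17, SE, edgeR adjusted p = 1.5e-04), together with Myc, Rgs1 (-0.62) and Rgs2 (-1.20). Of this list, 3 higher and 2 lower were called without the replicate block, and 11 to 14 higher and 3 to 4 lower with each WT library left out. Unpaired, Myc, Fos, Egr1, Fosl2, Btg2, Egr3, Ier2 and Rgs1 were no longer called (edgeR adjusted p = 0.072 to 0.63). Among the fits with a library left out, calls were lost without the male Vwf- library (Ier2 and Rgs1), the female Vwf- library (Ier2), the male Vwf+ library (Rgs1) and the female Vwf+ library (Fos and Ier2).

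Cytokine signalling was described from receptor to target. Of 28 genes of JAK-STAT signalling, 6 rose and 2 fell. The receptors Osmr, Il10ra at 23.3 and 13.2 CPM in Vwf+ and 4.85 and 1.26 CPM in Vwf- cells (log2 difference 2.73 ± 0.33, SE, edgeR adjusted p = 1.5e-05), and Il6st, the shared gp130 chain (log2 0.67), were higher, and Il18r1 and Il12rb2 (-0.87) lower. Socs3, a feedback inhibitor below gp130, stood at 30.1 and 41.6 CPM in Vwf+ and 9.23 and 23.4 CPM in Vwf- cells (log2 difference 1.24 ± 0.19, SE, edgeR adjusted p = 2.2e-04). Socs2 (1.02) and Pim2 (1.12), also STAT targets, rose, and the kinases and factors Jak1 (log2 0.03), Jak2 (log2 -0.12), Stat3 (log2 0.17) and Stat5b (log2 -0.32) did not pass the test (edgeR adjusted p = 0.22 to 0.96). Of 34 genes of TGF-beta and BMP signalling, 5 (14.7%) rose and none fell, against 8.35% of all tested genes called. They were the ligands Bmp4, at 21.4 and 16.4 CPM in Vwf+ and 5.66 and 2.79 CPM in Vwf- cells (log2 difference 2.23 ± 0.27, SE, edgeR adjusted p = 1.1e-05), and Tgfb3 (1.21), the receptor Neo1, the inhibitor Smad7 (0.81) and the target Id2 (1.20). Of 30 Wnt and Notch genes, 4 (13.3%) rose, and the list median was -0.03. Among all tested genes at 3 to 100 CPM, the share called was 10.1% to 12.4%, near that of these 2 lists. The higher Wnt and Notch genes were the Notch ligands Jag1, Dll4 (log2 2.31) and Jag2 (1.29), and the Wnt co-receptor Ryk (0.91). Jag1 stood at 19.03 and 22.1 CPM in Vwf+ and 5.77 and 4.11 CPM in Vwf- cells (log2 difference 2.09 ± 0.25, SE, edgeR adjusted p = 1.2e-05). The receptors and target Notch1 (log2 0.37), Notch2 (log2 -0.33), Notch3 (log2 -0.07), Notch4 (log2 0.18) and Hes1 (log2 0.60) did not pass the test (edgeR adjusted p = 0.11 to 0.95). Of 23 Hippo genes, 4 (17.4%) rose: the co-activator Wwtr1 (TAZ), at 40.2 and 44.8 CPM in Vwf+ and 18.6 and 19.8 CPM in Vwf- cells (log2 difference 1.15 ± 0.17, SE, edgeR adjusted p = 1.2e-04), its partner Tead2 (0.78), the angiomotin Amotl2 and the target Cyr61 (2.65). With no replicate block the edgeR adjusted p was 0.056 to 0.30 for Il18r1, Il10ra, Il6st, Il12rb2, Socs3, Socs2, Pim2, Tgfb3, Smad7, Id2, Dll4, Ryk, Tead2 and Cyr61. With a library left out, calls ended without the male Vwf- library (Il18r1, Il12rb2, Id2 and Cyr61), the female Vwf- library (Il18r1, Il6st, Il12rb2, Socs2, Tgfb3, Smad7, Id2, Ryk, Tead2 and Cyr61), the male Vwf+ library (Il18r1 and Cyr61) and the female Vwf+ library (Il12rb2, Id2 and Cyr61). In these 4 lists, 1, 2, 2 and 2 members were called higher and none lower without the replicate block. The JAK-STAT list had 0 lower without the male Vwf-, 0 lower without the female Vwf- and 1 lower without the female Vwf+ library. The TGF-beta list had 2 higher without the female Vwf- and 4 lower without the male Vwf+ library. The Wnt and Notch list had 1 lower without the male Vwf+ library. The Hippo list had 2 higher without the female Vwf- library.

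Adhesion, junction and matrix genes had 16 of 54 members higher and 7 lower (42.6% called, against 8.35% of all tested genes). Junction genes were among the higher ones: Ocln, which encodes occludin, stood at 24.1 and 30.5 CPM in Vwf+ and 5.20 and 5.55 CPM in Vwf- cells (log2 difference 2.33 ± 0.21, SE, edgeR adjusted p = 3.7e-07), beside Cldn5, Jam2, Jam3, Cldn12 (0.75) and F11r (0.55). Cdh5, the cadherin of endothelium, was called at very low counts (25 and 33 in Vwf+ and 1 and 9 in Vwf- cells). Integrins divided: Itgb3, Itga3 (1.15) and Itga6 (0.49) rose, whereas Itga4 fell, at 181 and 166 CPM in Vwf+ and 268 and 325 CPM in Vwf- cells (log2 difference -0.77 ± 0.14, SE, edgeR adjusted p = 9.8e-04), with Itgal (-2.01). The hyaluronan receptor Cd44 (-0.48) and the collagen genes Col4a1 (-0.58) and Col4a2 (-0.55) also fell. Of this list, 9 higher and 1 lower were called without the replicate block, and 12 to 16 higher and 2 to 12 lower with each WT library left out, namely 4 lower without the male Vwf- library, 12 lower without the male Vwf+ library and 2 lower without the female Vwf+ library. The fit with no pairing of the sexes lost Cldn12, F11r, Cdh5, Itga3, Itga6, Itgal, Cd44, Col4a1 and Col4a2 (edgeR adjusted p = 0.13 to 0.34). Calls were also lost without the male Vwf- library (Cldn12, F11r, Cdh5, Itga6, Cd44, Col4a1 and Col4a2), the female Vwf- library (F11r, Cdh5, Itga6 and Cd44), the male Vwf+ library (Cdh5 and Itga6) and the female Vwf+ library (F11r, Cdh5, Itgal, Cd44, Col4a1 and Col4a2).

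Several of these genes also mark endothelial cells. Of 17 tested endothelial markers 5 were higher in Vwf+ cells, namely Cldn5, Ramp2, Sox18, Kdr and Cdh5, with Kdr, the VEGF receptor VEGFR2, at 48.5 and 32.3 CPM in Vwf+ and 8.77 and 6.76 CPM in Vwf- cells (log2 difference 2.36 ± 0.20, SE, edgeR adjusted p = 1.3e-07). The other 12 did not pass the test, though 15 of the 17 had a positive difference (median 0.37). Emcn stood at 20.4 and 17.6 CPM in Vwf+ and 17.6 and 20.02 CPM in Vwf- cells, Plvap at 3.33 and 0.517 CPM in Vwf+ and 1.49 and 1.86 CPM in Vwf- cells and Pecam1 at 64.9 and 61.4 CPM in Vwf+ and 46.4 and 58.00 CPM in Vwf- cells. Lyve1 and Sox17 had at most 7 counts in any WT library. The list summed to 890.3 and 769 CPM in Vwf+ cells and 606 and 583 CPM in Vwf- cells, and the part of endothelial cells in these differences was not tested. Without the replicate block, Cdh5 was no longer called (edgeR adjusted p = 0.22). Among the fits with a library left out, calls were lost without the male Vwf- library (Cdh5), the female Vwf- library (Cdh5), the male Vwf+ library (Cdh5) and the female Vwf+ library (Cdh5).

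Of 28 genes listed as imprinted, a term for expression from the allele of 1 parent, 6 rose and 1 fell (25.0% called). Whether they were so expressed in these cells was not measured. Ndn, which encodes necdin, stood at 81.5 and 85.8 CPM in Vwf+ and 39.2 and 36.6 CPM in Vwf- cells (log2 difference 1.15 ± 0.14, SE, edgeR adjusted p = 1.5e-05). Dlk1 (2.77), Meg3 (1.48) and Rian (1.67) of a shared cluster on chromosome 12 rose, as did H19, at 3.60 and 4.26 CPM in Vwf+ and 0.0708 and 0.240 CPM in Vwf- cells (log2 difference 4.90 ± 0.80, SE, edgeR adjusted p = 3.6e-04), and Cdkn1c. Slc22a3 fell. Of 19 genes of DNA methylation, 5 fell (26.3% called, against 8.35% of all tested genes). The maintenance methyltransferase Dnmt1 stood at 301 and 354 CPM in Vwf+ and 398 and 658 CPM in Vwf- cells (log2 difference -0.63 ± 0.17, SE, edgeR adjusted p = 0.021). The others were its cofactor Uhrf1, which is also in the S phase list, Hells (-0.81), Dnmt3b (-0.57) and Tet3 (-0.56). Dnmt3a, the gene altered in the other genotype, stood at 175 and 203 CPM in Vwf+ and 251 and 202 CPM in Vwf- cells (edgeR adjusted p = 0.50). Of 37 Polycomb and trithorax genes 4 (10.8%) were called, near the 8.35% of all tested genes: the methyltransferase gene Ezh1 rose, at 115 and 130.1 CPM in Vwf+ and 66.3 and 62.8 CPM in Vwf- cells (log2 difference 0.93 ± 0.14, SE, edgeR adjusted p = 2.0e-04), and its homologue Ezh2 fell, at 55.5 and 68.7 CPM in Vwf+ and 86.2 and 132 CPM in Vwf- cells (log2 difference -0.79 ± 0.14, SE, edgeR adjusted p = 6.7e-04), with Cbx2 (-0.69) and Pcgf5 (-0.51). The DNA methylation list had 2 lower without the female Vwf- and 2 lower without the female Vwf+ library. The Polycomb list had 1 lower without the male Vwf-, 6 lower without the male Vwf+ and 1 lower without the female Vwf+ library. Unpaired, Uhrf1, Meg3, Rian, H19, Dnmt1, Hells, Dnmt3b, Tet3, Ezh2, Cbx2 and Pcgf5 were no longer called (edgeR adjusted p = 0.080 to 0.54). With a library left out, calls ended without the male Vwf- library (Dnmt1, Cbx2 and Pcgf5), the female Vwf- library (Dnmt1, Dnmt3b, Tet3 and Pcgf5) and the female Vwf+ library (Meg3, Dnmt1, Dnmt3b, Tet3, Cbx2 and Pcgf5).

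Housekeeping, metabolic and interferon lists were described last. Of 68 cytosolic ribosomal protein genes, 65 had a positive difference with a median of 0.34, but the medians were 0.10 in the male and 0.58 in the female pair, and only Rps21 was called; 40 were called higher without the male Vwf+ library. The median was 0.22 without the female Vwf- library, 0.15 without the female Vwf+ library and 0.20 on TPM. None of 50 nuclear genes of oxidative phosphorylation and none of 20 of cholesterol synthesis were called by edgeR, DESeq2 or limma, and 1 of each had an unadjusted p under 0.05. Without the male Vwf+ library 4 and 1 were higher and 1 of each lower. Glycolysis had 5 of 25 members higher, with Hk2, the hexokinase of growing cells, at 165 and 155 CPM in Vwf+ and 91.3 and 106 CPM in Vwf- cells (log2 difference 0.71 ± 0.16, SE, edgeR adjusted p = 0.0052), and Ldha (0.51), Pfkp (0.65), Aldoc (0.78) and Eno2 (1.23). Of 28 transporters, 4 rose, among them the efflux pump Abcg2 (0.59), and 2 fell, Slc22a3 and Spns3. Of 47 interferon response genes 8 rose and 1 fell: Slfn2 stood at 96.8 and 82.4 CPM in Vwf+ and 47.8 and 41.2 CPM in Vwf- cells (log2 difference 1.01 ± 0.14, SE, edgeR adjusted p = 5.4e-05), Ifitm1 at 248 and 247 CPM in Vwf+ and 159.9 and 114 CPM in Vwf- cells (log2 difference 0.87 ± 0.15, SE, edgeR adjusted p = 4.6e-04), and Ifi27 fell (-0.65). Of this list, 3 higher and 0 lower were called without the replicate block, and 4 to 13 higher and 0 to 2 lower with each WT library left out, namely 5 higher without the male Vwf- library, 13 higher without the male Vwf+ library and 4 higher without the female Vwf+ library. The glycolysis list had 3 higher without the male Vwf-, 2 higher without the female Vwf-, 2 higher without the female Vwf+ and 1 lower without the male Vwf+ library. The transporter list had 0 higher without the female Vwf-, 2 higher without the female Vwf+ and 4 lower without the male Vwf+ library. With no replicate block the edgeR adjusted p was 0.16 to 0.43 for Rps21, Hk2, Ldha, Pfkp, Aldoc, Eno2, Abcg2 and Ifi27. Calls were also lost without the male Vwf- library (Rps21, Ldha and Aldoc), the female Vwf- library (Rps21, Ldha, Pfkp, Aldoc, Abcg2 and Ifi27), the male Vwf+ library (Hk2 and Ifi27) and the female Vwf+ library (Rps21, Ldha, Pfkp, Aldoc, Eno2 and Abcg2).

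**Figure D5:**
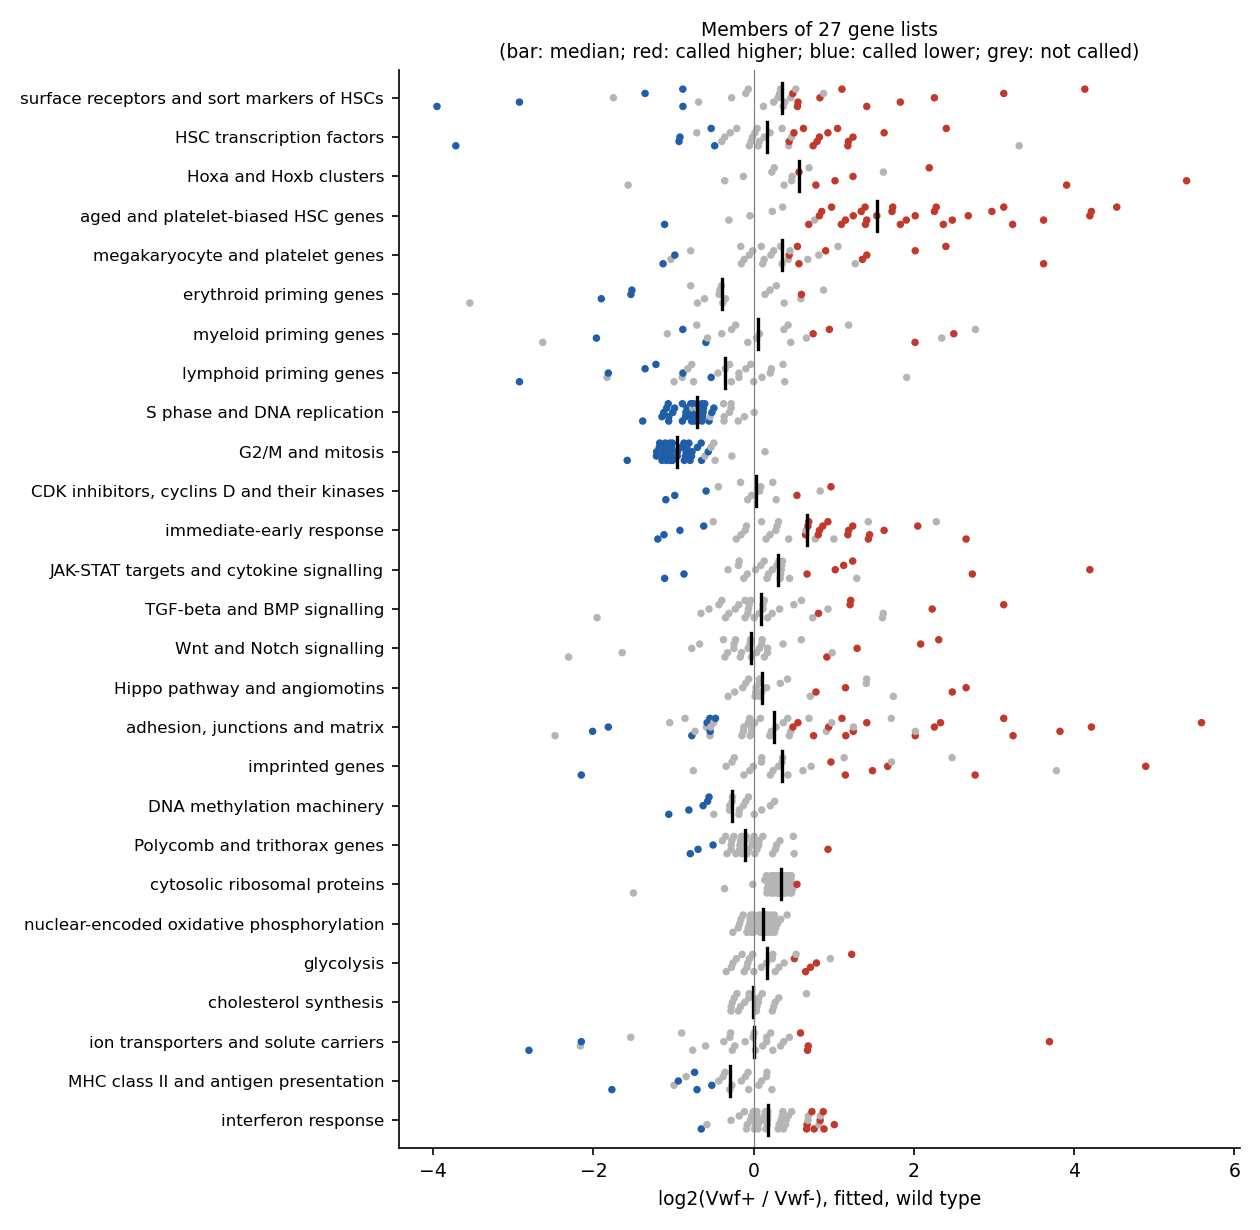
Fitted log2 difference of each tested member of 27 gene lists (red called higher, blue called lower, grey not called, black bar the median). The aged and platelet-biased list lies furthest right (median 1.54), the S phase (-0.71) and G2/M (-0.95) lists furthest left, and the ribosomal proteins form a narrow group around 0.34 with 1 call.

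Called genes also lay next to each other on the chromosomes, in runs of 3 or more consecutive tested genes with the same direction. Vwf had higher neighbours on chromosome 6, Plekhg6 (log2 1.20) and Cd9 (0.55), within 324 kb. Further along that chromosome a cluster of C-type lectin receptor genes, Clec1b (2.40), Clec9a (1.13), Clec1a (0.75) and Clec7a (2.79), was higher over 75.5 kb. Clu had Scara3 (2.79) and Gulo (2.93) beside it, and Matn4 had Rbpjl (3.96) and Sdc4 (1.19). Ifitm1 and Ifitm3 were followed by B4galnt4 (0.58). Whether reads from a strong gene were counted for its neighbours was not tested. Of 6 runs of lower genes, 3 were histones, with 11, 6 and 5 consecutive Hist1 genes on chromosome 13, where 9.12% of tested genes were lower against 3.78% in all. Tap2, H2-Ob and H2-Ab1 formed another on chromosome 17, and the others held Zfp704 and Pag1 on chromosome 3 and Git2 and Ankrd13a on chromosome 5. These runs were looked for with no test. The fit with no pairing of the sexes lost Cd9, Clec1b, Tap2, H2-Ob, H2-Ab1, Zfp704, Pag1, Git2, Ankrd13a, Plekhg6, Clec9a, Clec1a, Clec7a, Sdc4 and B4galnt4 (edgeR adjusted p = 0.054 to 0.41). Among the fits with a library left out, calls were lost without the male Vwf- library (Cd9, Pag1, Git2, Ankrd13a and B4galnt4), the female Vwf- library (Cd9, Clec1b, Tap2, H2-Ob, H2-Ab1, Zfp704, Pag1, Git2, Ankrd13a, Clec1a, Scara3 and B4galnt4) and the female Vwf+ library (Cd9, Clec1b, Tap2, Zfp704, Pag1, Git2, Ankrd13a, Clec1a and B4galnt4).

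The Dnmt3a+/- fractions give the same contrast in other libraries. These entered the same fit, with a shared spread and replicate block, so the contrasts are not fully independent. Of the 728 genes higher in WT Vwf+ cells, 727 had a positive difference in Dnmt3a+/- cells and 461 were called there (3.52% of all tested genes were called higher in that contrast). Of the 601 lower genes, 595 had a negative difference and 243 were called (1.85% of all). The share of all tested genes with the same sign in both genotypes was not taken. Vwf differed by log2 3.34 there, Clu by 4.34, Cldn5 by 5.36, Flt3 by -2.32 and Hnf4a by -2.98. G2/M genes had a median of -0.44 in Dnmt3a+/- against -0.95 in WT cells, with 10 and 37 of 43 called lower. The test of the difference between genotypes called none of 15917 genes in edgeR (0.00%, smallest adjusted p = 0.91) and none in DESeq2. An unadjusted p under 0.05 was found for 365 genes, where 795.9 would be met by chance alone. With fewer small p-values than that, the lack of calls cannot show that the genotypes are alike. Of the 365, 13 were among the 43 G2/M genes, which move together and are not independent. Kcnb2 had the smallest p (5.7e-05 unadjusted, edgeR), at 3.68 and 5.61 CPM in Dnmt3a+/- Vwf+ and 0.287 and 0.766 CPM in Dnmt3a+/- Vwf- cells. Called counts of that test rose to 11 with 4 blocks of genotype and replicate, 30 with no filter on low counts, and up to 173 with 1 library left out (without the male WT Vwf+ library).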

How the data were processed

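Total RNA was turned into libraries with a pico-input kit, per the labels' protocols. The deposited table holds whole-number read counts per gene and a second deposited table holds TPM, which allows for gene length. Per the submitters' processing notes, Trim Galore, STAR, featureCounts and DESeq2 were used with mm10; versions, annotation, strand and molecular identifier handling are not given in the sources used here, so overlapping and antisense genes cannot be told apart. Of 24421 genes, 15917 passed edgeR's filterByExpr (minimum count 10). edgeR 4.0.16 (R 4.3.3, TMM scaling) was fitted to all 8 libraries with 4 group means and the replicate number as a block, with 3 residual degrees of freedom (common dispersion 0.0355). CPM are scaled by TMM (factors 0.958 to 1.06), and SE are the log2 difference over the root of F. P-values were adjusted by Benjamini-Hochberg over all tested genes. Fitted log2 differences of genes at or near 0 counts in a group depend on the prior count.

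The replicate number marks sex in each group, per the labels, and deviations of same-numbered libraries from their group means correlated with r = 0.134 to 0.296 over the 6 pairs of groups (0.199 for the WT groups, 0.159 on autosomes). Members and lists were chosen with earlier results of these data known. Named were Vwf, the 15 genes a direction with the smallest p, the 6 a direction with the largest difference at a mean of at least 5 CPM, up to 4 called members of each list a direction, and defining members; pairs had to share the sign, and clone names were left out. Other genes named beside these were chosen after their values were seen. Gene positions are from GENCODE M21 (GRCm38); promoters are RefSeq's (GRCm38.p6), and 11795 tested genes matched. Alternatives were another block, scaling or filter, a minimum log2 change of 1, DESeq2 1.42.0, limma 3.58.1 on log2(TPM + 1), and each library left out. On data simulated from these libraries, 67% of genes changed by a log2 of 1 and 77.1% of those changed by 2 were called, with 4 false among 145 calls. The simulated replicate effect was the same in every group, as the fit assumes. It therefore cannot show whether the block holds in the real libraries, nor give their share of false calls. Some genes of the lists are not reported here by name.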

Additional observations from a re-analysis of the deposited data

How the results depend on the processing

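Without the replicate block, 314 genes were called in the WT comparison, 235 higher and 79 lower. A minimum log2 change of 1 left 126 (105 and 21). On TPM, limma called 610 genes (282 higher and 328 lower) with a pseudocount of 1, 597 (272 and 325) with 0.1, and 56 (43 and 13) with no filter; TPM moved the median of all genes by -0.13. The 4 WT libraries fitted alone gave 1974 calls, 909 of them lower. With 1 library left out, 780 to 2375 genes were called, 426 to 1120 higher and 326 to 1255 lower; the lone library left in a group is then assumed to vary like the others. DESeq2, other size factors, a minimum count of 50, no filter and 4 blocks gave 1327 to 1872 calls. For the 133 genes named by smallest p, largest difference or as called list members, with Vwf, no call reversed under the settings run. Other genes named in the text were not part of this check. The difference between genotypes gave 11 calls with 4 blocks, 30 with no filter, and 0 to 173 with 1 library left out, 173 of them without the male Vwf+ WT library. List medians changed sign for 6 of 27 lists on TPM and for 1 with DESeq2's size factors, an alternative chosen after seeing the data, and for 7 with a WT library left out. Of genes under 1 CPM, 0.211% were called, and the part of depth in this was not tested.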

Other observations

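Some gene families were grouped by their shared symbol after the values were seen; a few of their members also stand in the lists above. Of 18 tested semaphorins (Sema), which guide axons and vessels, 5 were higher in Vwf+ cells and none lower (27.8%, against 4.57% of all tested genes). Of 18 C-type lectin genes (Clec), 4 (22.2%) were higher and none lower, and these are the 4 neighbours on chromosome 6. Of 25 phosphodiesterase genes (Pde), which break down cyclic nucleotides among other substrates, 5 were higher and 1 lower, with a median of 0.52. Of 18 Rgs genes, most of which encode inhibitors of G protein signalling, 5 were lower and none higher, with a median of -0.34. That is 27.8% lower, against 3.78% of all tested genes.

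Most tested genes were protein-coding, at 14146 of 15917. Of these, 701 (4.96%) were higher and 575 (4.06%) lower, near the 4.57% and 3.78% of all tested genes. Among 219 long intergenic RNAs, 3 (1.37%) were higher and 2 (0.913%) lower, and the part of their level in this was not tested. The share of genes called was 0.211% under 1 CPM, 4.91% from 1 to 3 CPM, 12.4% from 3 to 10 CPM and 9.14% above 100 CPM.

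Promoters differed in base composition between lists. Fewer than 5 CpG in the 250 bases before the start were found for 58.3% of 24 megakaryocyte and platelet genes and for 37.0% of 27 aged and platelet-biased genes, against 16.9% of all 11795. Among G2/M genes the share was 5.56% of 36. No test was run on these shares.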
